A study of Mus musculus with 12 samples.

Results

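Cultured cells of 4T1, a mouse mammary carcinoma line, were kept in interstitial fluid extract (IFE) of lungs from old or young mice, and their RNA was compared across all genes. The 6 culture libraries of the 12 in the series were chosen by their labels: 3 with old IFE and 3 with young IFE, and the other 6 are 4T1 cells sorted from old or young lungs. All 6 cultures were grown in RPMI-1640 with 10% fetal bovine serum. They were switched 24 h after seeding to serum-free RPMI-1640 holding 25% IFE and were harvested 72 h later. The IFE donors of both ages carried 4T1 lung metastases. The labels give these mice no age in months, and the culture titles carry the tag shNT, which the labels do not explain. Nothing in the labels says that the replicates were separate cultures or separate extracts, so the p-values measure only the spread between these samples. Poly-A RNA was sequenced to 12299004 to 18129164 counts per library. By the title of the series, IFE was tried as a way to model cancer of old age in a dish.

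Interstitial fluid is the liquid between the cells of a tissue, and it carries proteins, metabolites and hormones from blood and from local cells. Cells read such a medium through receptors, and through integrins and the actin skeleton, whose tension feeds the coactivators YAP and TAZ and the transcription factor SRF. Interferon gamma and the cytokines that act through NF-kB switch on separate programs of antigen presentation, guanylate-binding proteins and chemokines.

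One library stood apart and is given before the results that rest on it. At genes of 10 CPM or more (a gene's count scaled by the size of its library), old IFE replicate 3 differed from each of the other 5 libraries by a root mean square of 0.198 to 0.211 on the log2 scale, and those 5 differed from each other by 0.132 to 0.168. The pair of remaining old IFE libraries were the closest of all, at 0.132. The results below say where they change without old IFE replicate 3. The cells carried the epithelial markers of the line in every library, with Epcam at 141 to 161 CPM, Cdh1 at 465 to 510 CPM and Krt8 at 285 to 363 CPM. Some markers of lung and blood cells were at or near 0. Sftpc of alveolar cells, Scgb1a1 of airway cells, Pecam1 of endothelium, Csf1r and Lyz2 of macrophages and S100a8 of neutrophils stayed at or under 0.661 CPM in all 6 libraries. Others reached higher values. Cd68 of macrophages stood at 2.95 to 4.89 CPM, and Pdgfra and Col1a1 of fibroblasts at 15.5 to 19.9 CPM and 0.921 to 1.70 CPM. Alas2, the 1 of 6 erythrocyte list genes in the table, stood at 0.496 to 1.17 CPM. The neutrophil list, with 2 of 12 genes in the table, summed to 0.256 to 0.664 CPM with old IFE and 0.163 to 0.676 CPM with young IFE. The list for T, NK and B cells, with 2 of 14 genes in the table, summed to 0.148 to 0.275 CPM with old IFE and 0.307 to 0.457 CPM with young IFE. The macrophage list summed to 8.87 to 11.3 CPM with old IFE and 8.23 to 10.8 CPM with young IFE, and the alveolar and airway list to 7.3 to 8.65 CPM with old IFE and 6.53 to 7.13 CPM with young IFE. Endothelial markers, of which 1 passed the count filter, summed to 85.0 to 109 CPM with old IFE and 83.5 to 94.3 CPM with young IFE. Fibroblast markers summed to 215 to 218 CPM with old IFE and 219 to 232 CPM with young IFE. The groups overlapped for Alas2 and for the macrophage, neutrophil and endothelial lists, and not for the other 3 lists, whose part in the results was not tested. Of these 3, the list for T, NK and B cells had no gene that passed the count filter.

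With old IFE, a small set of genes was higher, among them the actin-skeleton genes Actg1 and Cnn2 and the matrix genes Ccn2 and Ltbp2, and Txnip, Tfrc, Btg1 and Il23a were lower. With all 6 libraries, 11 of 13118 genes tested passed an adjusted p of 0.05 (edgeR quasi-likelihood test, Benjamini-Hochberg adjustment), 0.0839% of the genes. Of these 7 were higher (0.0534%) and 4 were lower (0.0305%) with old IFE. All 11 had groups that did not overlap, which held in the upward direction for 6.21% and in the downward direction for 6.92% of all genes tested. Nothing is read from that, since the 11 genes were called on these same 6 libraries. An unadjusted p under 0.05 was reached by 929 genes (7.08%). The number called changed with the libraries kept, to 8, 1 and 183 without old IFE replicates 1, 2 and 3, and 1, 2 and 1 without young IFE replicates 1, 2 and 3. DESeq2 called 26 genes with 6 libraries, and limma-voom and edgeR without robust weights called 1 each. The rises were 1.27-fold to 1.52-fold, and the falls were to 0.764 to 0.855 of the young IFE level. The median log2 fold change over all genes was 0.0051.

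**Figure D1:**
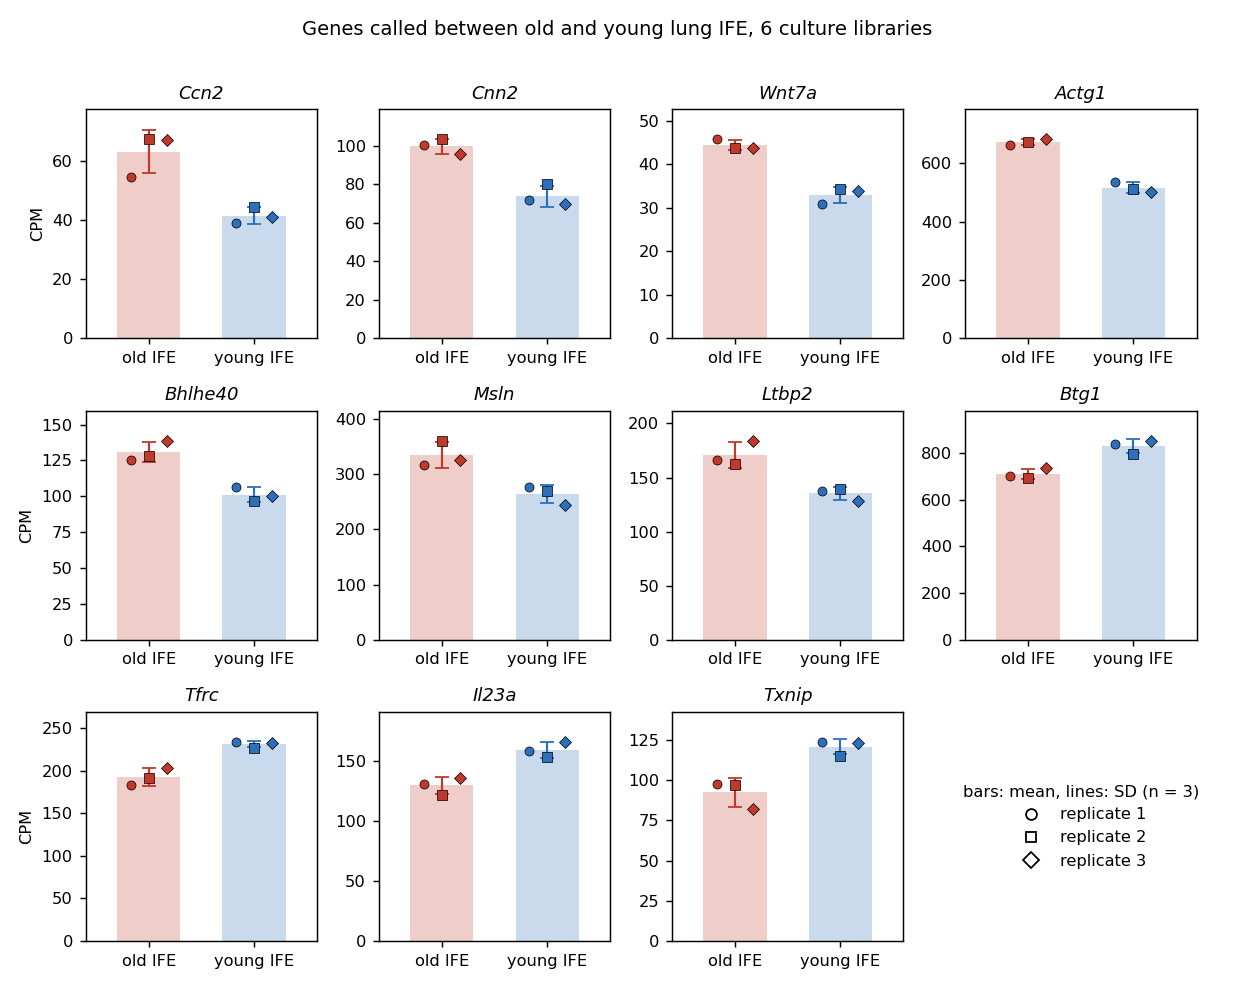
CPM of the 11 called genes, 1 panel per gene, with old IFE on the left and young IFE on the right. Points are libraries with a symbol for each replicate number, bars are means and lines are SD (n = 3). In every panel the 3 old IFE points lie wholly above or wholly below the 3 young IFE points.

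The highest-ranked gene was Actg1, which encodes cytoplasmic gamma-actin (ENSMUSG00000062825, chromosome 11, 120236516 to 120239368, minus strand, in the deposited coordinates, whose genome build the labels leave unclear). Actg1 stood at 661, 672 and 683 CPM with old IFE and at 537, 511 and 503 CPM with young IFE. The old IFE libraries lay close together and all lay above the young IFE libraries. Its log2 fold change was 0.38 ± 0.0374 (SE; adjusted p = 9.26e-05, edgeR), and it passed the test with each library left out in turn, at adjusted p up to 0.0215. The other 10 called genes did not. With 1 library left out at a time, Cnn2 passed in 3 of 6 cases, Ccn2, Msln, Bhlhe40, Ltbp2 and Txnip in 2 of 6, and Btg1, Tfrc, Il23a and Wnt7a in 1 of 6, with the highest adjusted p of each gene between 0.216 and 0.521 (edgeR). Cnn2, which encodes the actin-binding protein calponin 2 (chromosome 10, 79824418 to 79831896, plus strand), stood at 100.4, 103 and 95.5 CPM with old IFE, against 71.6, 80.0 and 69.8 CPM with young IFE. Again the lowest old IFE library was above the highest young IFE library, with a log2 fold change of 0.44 ± 0.062 (adjusted p = 0.00712).

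The promoters of these 2 actin-skeleton genes are shown because they shared a sequence that was searched for in the called genes. The CArG box is the element bound by SRF, a factor whose activity follows the pool of free actin. RefSeq promoter windows (GRCm38.p6, 250 bases before to 50 bases after the gene's start) were at hand for 7 of the 11 called genes. A CArG box, searched on both strands, was in 2 of those 7 windows, Actg1 and Cnn2, and in 1.63% of 32851 windows of the same 300 bases across the genome. In the upstream 250 bases printed here, 5′ to 3′ on the gene's strand, capitals mark the CArG box, which begins 90 bases before the start of Actg1 and 56 bases before that of Cnn2.
Actg1 (chr11:120348496-120348745, minus strand): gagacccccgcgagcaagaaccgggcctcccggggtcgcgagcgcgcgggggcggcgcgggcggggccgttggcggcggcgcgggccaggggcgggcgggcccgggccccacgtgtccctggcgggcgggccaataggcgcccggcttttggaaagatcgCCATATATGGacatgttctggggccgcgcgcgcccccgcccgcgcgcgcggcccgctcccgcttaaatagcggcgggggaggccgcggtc
Cnn2 (chr10:79988350-79988599, plus strand): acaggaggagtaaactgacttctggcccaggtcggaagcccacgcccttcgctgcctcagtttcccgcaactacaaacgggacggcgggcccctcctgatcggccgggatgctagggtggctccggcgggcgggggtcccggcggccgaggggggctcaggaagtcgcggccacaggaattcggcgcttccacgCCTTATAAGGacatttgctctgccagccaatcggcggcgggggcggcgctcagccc
The windows of Ltbp2, Wnt7a, Txnip, Btg1 and Tfrc held no such match. The search covered 5 other motifs in the same 7 windows. The E-box CACGTG was in 1 window (7.15% of all windows). The TEAD motif GGAATG (14.7%), the STAT site TTCNNNGAA (8.3%), the interferon element GAAA, any 2 bases and GAAA (3.44%) and an NF-kB motif (4.51%) were in 0. The matches are descriptions of sequence, and occupancy by SRF was not measured.

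The list of actin, calponin and SRF target genes had 26 members tested. Of these, 23 had a positive log2 fold change, against 51.9% of all genes (51.3% without old IFE replicate 3), and 12 had all 3 old IFE libraries above all 3 young IFE libraries, against 6.21% of all genes. None had them all below, against 6.92%. This list and those below were written with earlier results of these data known, and this one holds Actg1 and Cnn2. Their shares are descriptions only. Its median log2 fold change was 0.09 with all 6 libraries and 0.07 without old IFE replicate 3. Members beyond Actg1 and Cnn2 did not pass the test with all 6 libraries. Actb, the beta-actin gene, stood at 1160, 1137 and 1191 CPM with old IFE and 1075, 1086 and 1075 CPM with young IFE (log2 fold change 0.11, adjusted p = 0.437, edgeR). The groups did not overlap. The next 3 members were picked after their values were seen. Myh9, non-muscle myosin heavy chain, had a log2 fold change of 0.15 (adjusted p = 0.386), Tpm1, a tropomyosin, one of 0.15 (adjusted p = 0.4) and Flna, filamin A, one of 0.09 (adjusted p = 0.544). The actin-associated adaptor Pdlim7 stood at 110.1, 125 and 109.6 CPM with old IFE, against 93.9, 105 and 91.6 CPM with young IFE. It passed the test only when old IFE replicate 3 was left out (log2 fold change 0.28, adjusted p = 0.00668).

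Ccn2 and Ltbp2 belong to the matrix that surrounds cells. Ccn2 encodes connective tissue growth factor, a secreted protein and a textbook YAP and TAZ target (chromosome 10, 24471340 to 24474581, plus strand). It stood at 54.6, 67.3 and 67.1 CPM with old IFE and at 38.9, 44.5 and 41.0 CPM with young IFE. Old IFE replicate 1 was the lowest of its group and still above every young IFE library. The log2 fold change of 0.60 ± 0.085 was the largest of the 11 (adjusted p = 0.00712, edgeR). Ltbp2 encodes latent TGF-beta binding protein 2, a protein of elastic fibres (chromosome 12, 84829986 to 84923306, minus strand). It stood at 166, 162 and 184 CPM with old IFE, against 138, 139.8 and 128 CPM with young IFE (log2 fold change 0.34 ± 0.055, adjusted p = 0.0205).

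The wider lists around these genes moved less evenly. Of 22 YAP and TAZ targets tested, 16 had a positive log2 fold change, against 51.9% of all genes. With 6 libraries 1, Ccn2, was called higher, against 0.0534% of all genes. The median of the list was 0.14 with all libraries and 0.04 without old IFE replicate 3, when 14 were positive, against 51.3% of all genes. Without that library 4 of them were called higher: Ccn1, Ccn2, the LIM protein Ajuba and the caveolar protein Cavin2, against 0.628% of all genes. Ccn1, the sister gene of Ccn2, stood at 81.8, 86.9 and 134 CPM with old IFE, against 68.8, 64.4 and 71.1 CPM with young IFE. All 3 old IFE values were above the young ones, and old IFE replicate 3 was far above its own group. Ccn1 was not called with all 6 libraries (log2 fold change 0.56, adjusted p = 0.729, edgeR) and was called without that library (0.31, adjusted p = 0.00379). Of 25 genes on the list of TGF-beta ligands, binding proteins and targets, 15 were positive, against 51.9% of all genes, with a median of 0.03. Ltbp2 and Bhlhe40 were called higher with 6 libraries, against 0.0534% of all genes. Without old IFE replicate 3, Ltbp2, Ltbp3, Ltbp4, Bhlhe40, Pmepa1 and Bmp1 were called higher and the receptor gene Tgfbr2 and the activin gene Inhba lower, against 0.628% of all genes called higher and 0.74% called lower. Of 23 collagens and matrix proteins 15 were positive, against 51.9% of all genes, with a median of 0.06. With edgeR and 6 libraries 0 were called and 4 had an unadjusted p under 0.05, against 7.08% of all genes. DESeq2 called 2 and limma-voom 0. Without old IFE replicate 3, edgeR called Thbs1 and Fbln2 higher, against 0.628% of all genes.

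Other called rises came from a transcription factor, a surface protein and a ligand. Bhlhe40 encodes a repressor of the circadian clock that also answers to TGF-beta and low oxygen (chromosome 6, 108637590 to 108643886, plus strand). It stood at 125, 128 and 139 CPM with old IFE and at 107, 96.5 and 100.3 CPM with young IFE (log2 fold change 0.37 ± 0.0561, adjusted p = 0.0103, edgeR). Msln encodes mesothelin, a cell-surface protein of mesothelium and of several carcinomas (chromosome 17, 25967587 to 25973352, minus strand). It stood at 317, 361 and 326 CPM with old IFE, against 277, 269.6 and 245 CPM with young IFE (log2 fold change 0.34 ± 0.0554, adjusted p = 0.0281). In both genes the groups were separate, with the narrowest space for Bhlhe40 between old IFE replicate 1 and young IFE replicate 1.

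Wnt7a, a secreted Wnt ligand (chromosome 6, 91340963 to 91388345, minus strand), stood at 45.7, 43.8 and 43.7 CPM with old IFE, against 30.9, 34.2 and 33.8 CPM with young IFE. The 3 old IFE libraries lay close together and the log2 fold change was 0.43 ± 0.0774 (adjusted p = 0.0319, edgeR). On the list of Wnt ligands and targets, 9 of 22 genes passed the count filter and 6 were positive, against 51.9% of all genes. Wnt7a was the 1 called, against 0.0534% of all genes called higher.

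The 4 genes that fell have separate roles. Txnip encodes an inhibitor of thioredoxin and of glucose uptake whose transcription follows glucose through MondoA (chromosome 3, 96465273 to 96469199, plus strand). It stood at 97.9, 97.02 and 82.2 CPM with old IFE, against 124, 115 and 123 CPM with young IFE (log2 fold change -0.39 ± 0.0643, adjusted p = 0.0217, edgeR). Old IFE replicate 3 was the lowest library. Arrdc4, the related MondoA target, stood at 9.48, 9.96 and 14.6 CPM with old IFE, against 11.6, 13.1 and 13.9 CPM with young IFE, and the groups overlapped (adjusted p = 0.866). Of 8 tested genes on the list of glucose-sensing targets, Txnip was the 1 called, against 0.0305% of all genes called lower.

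Tfrc encodes the transferrin receptor, which takes up iron (chromosome 16, 32427738 to 32451612, plus strand). It stood at 183, 191 and 204 CPM with old IFE, against 234, 227 and 233 CPM with young IFE. The log2 fold change was -0.27 ± 0.0467 (adjusted p = 0.031, edgeR). On the iron list 4 of 13 genes were positive with 6 libraries and 7 of 13 without old IFE replicate 3, against 51.9% and 51.3% of all genes. Tfrc was the 1 called in both comparisons, against 0.0305% and 0.74% of all genes called lower. Btg1, an antiproliferative gene that is high in resting cells (chromosome 10, 96452868 to 96458671, plus strand), stood at 699, 692 and 735 CPM with old IFE, against 838, 796 and 853 CPM with young IFE (log2 fold change -0.23 ± 0.0379, adjusted p = 0.0217). Il23a, which encodes the p19 subunit of interleukin 23 (chromosome 10, 128132008 to 128134621, minus strand), stood at 131, 122 and 136 CPM with old IFE, against 158, 153 and 166 CPM with young IFE (log2 fold change -0.29 ± 0.0523, adjusted p = 0.031). In all 3 genes each old IFE library was below each young IFE library.

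Leaving out old IFE replicate 3 raised the number of calls. With 2 old and 3 young IFE libraries, 183 of 13371 genes were called (1.37%), 84 higher (0.628%) and 99 lower (0.74%), and all 11 genes of the 6-library comparison were among them. Their log2 fold changes without that library were 0.28 to 0.55 for the 7 rises and -0.33 to -0.25 for the 4 falls, at adjusted p up to 0.0164 (edgeR). Over all 183 genes the median size of the change was 0.22 on the log2 scale. A change under 1.2-fold was found for 120 of the 183, and 7 changed by 1.5-fold or more. All 3 old IFE libraries stood above the young ones for 44 of the higher genes and below them for 54 of the lower genes, the library left out included. Over all genes the shares were 6.21% and 6.92%, and nothing is read from the difference, since the 183 genes were chosen on 5 of the same 6 libraries.

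**Figure D2:**
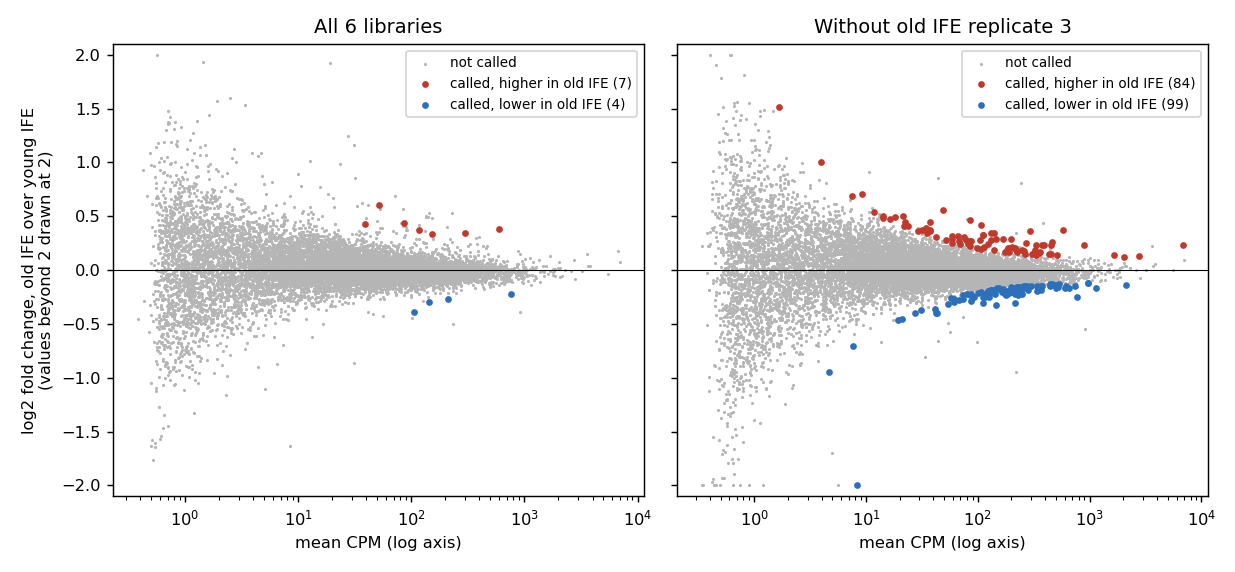
Log2 fold change of old IFE over young IFE against mean CPM (log axis), 1 point per gene tested, with all 6 libraries on the left and without old IFE replicate 3 on the right. Red and blue points are the called genes, 7 and 4 on the left, 84 and 99 on the right. Of the 183 on the right, 120 changed under 1.2-fold and 7 by 1.5-fold or more. Changes too large for the vertical axis are drawn at its edge.

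Most genes described next are among those with the lowest p in that comparison. Igfbp7, Itga3, Itgb1, Nr1d1 and Atf3 were picked from the lists, and Krt8 and Krt18 were named whatever their values. With edgeR all but Itgb1 and Krt18 were called in that comparison, and none was called with all 6 libraries. Eef1a1, the elongation factor that brings aminoacyl-tRNA to the ribosome, stood at 7694, 7248 and 6624 CPM with old IFE and 6371, 6416 and 6302 CPM with young IFE (log2 fold change 0.23 without old IFE replicate 3, adjusted p = 9.78e-08, edgeR; 0.18 and 0.474 with it). Rpl6, a protein of the large ribosomal subunit, had 974, 972 and 881 CPM with old IFE, against 819, 839.7 and 835 CPM with young IFE (0.23, adjusted p = 1.13e-05 without the library). For both genes old IFE replicate 3 was the nearest of its group to young IFE. Of 44 cytosolic ribosomal protein genes, 27 were positive with 6 libraries with a median of 0.008, against 51.9% of all genes. Without old IFE replicate 3, 34 were positive with a median of 0.02, against 51.3% of all genes. Rpl6 was the 1 called then, against 0.628% of all genes called higher.

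Thbs1, the matrix protein thrombospondin 1, had 158, 165 and 213 CPM with old IFE, against 124, 132 and 126 CPM with young IFE (log2 fold change 0.34 without old IFE replicate 3, adjusted p = 7.28e-06, edgeR). Mmp9, gelatinase B, had 151, 145 and 211 CPM with old IFE, against 114, 123 and 115 CPM with young IFE (0.34, adjusted p = 1.61e-05). In both genes the library left out lay on the same side as its group and farther out, and with it the adjusted p was 0.52 for Thbs1 and 0.638 for Mmp9. Igfbp7, a secreted IGF-binding protein, had the same order, at 95.2, 97.1 and 117 CPM with old IFE, against 79.9, 85.6 and 73.9 CPM with young IFE (0.27, adjusted p = 0.00788).

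Krt7, a keratin of simple epithelia, and Tubb5, a beta-tubulin, had another order. Krt7 stood at 432.3, 432.4 and 349.6 CPM with old IFE, against 378, 358 and 366 CPM with young IFE. Tubb5 stood at 506, 477 and 391 CPM with old IFE, against 418, 418 and 421 CPM with young IFE. In both, old IFE replicates 1 and 2 were above every young IFE library and replicate 3 was below every one, so the call without it (adjusted p = 7.13e-05 and 7.28e-05, edgeR) rests on 2 libraries. Krt8 had the same pattern (adjusted p = 0.00748 without the library). Krt18 did not, at 344, 332 and 302 CPM with old IFE, against 366, 359 and 331 CPM with young IFE. Its log2 fold change was -0.11 with 6 libraries (adjusted p = 0.695, edgeR) and -0.06 without old IFE replicate 3 (adjusted p = 0.604). Ltbp4, a matrix protein that binds latent TGF-beta, had 181, 196 and 151 CPM with old IFE, against 158, 159 and 145 CPM with young IFE (adjusted p = 8.95e-05 without it). Itga3, an integrin alpha chain for laminin, had 1763, 1748 and 1724 CPM with old IFE, against 1598, 1630 and 1556 CPM with young IFE, the groups apart (log2 fold change 0.14, adjusted p = 0.00747 without it and 0.191 with it). On the integrin list 14 of 21 genes were positive, and 12 without old IFE replicate 3, against 51.9% and 51.3% of all genes. Itga3 was the 1 called without that library, against 0.628% of all genes called higher. Itgb1, a beta chain on that list, was lower, with the groups apart. It had 1180, 1177 and 1205 CPM with old IFE, against 1258, 1269 and 1275 CPM with young IFE (-0.09, adjusted p = 0.52 with 6 libraries, edgeR).

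The lower genes of that comparison were of separate roles. Mex3c, an RNA-binding ubiquitin ligase, had 201, 187 and 198 CPM with old IFE, against 228, 224 and 229.7 CPM with young IFE (log2 fold change -0.22 without old IFE replicate 3, adjusted p = 0.00177, edgeR). Plin2, which coats lipid droplets, had 237, 216 and 232 CPM with old IFE, against 258, 272 and 262 CPM with young IFE (-0.22, adjusted p = 0.00219). Ero1a, an oxidase of the endoplasmic reticulum, had 168, 161 and 169 CPM with old IFE, against 198, 191 and 187 CPM with young IFE (-0.22, adjusted p = 0.00303). In these 3 genes all old IFE libraries, replicate 3 included, were below all young IFE libraries. Arid1a, a subunit of the SWI/SNF chromatin remodeller, had 212, 206 and 244 CPM with old IFE, against 239, 243 and 254 CPM with young IFE, and S100a10, a partner of annexin A2, had 321, 305 and 413 CPM with old IFE, against 352, 363 and 359.6 CPM with young IFE. In both, old IFE replicate 3 was above the lowest young IFE library, and for S100a10 above all of them. Nr1d1, the clock repressor REV-ERB alpha, had 32.7, 39.0 and 36.1 CPM with old IFE, against 46.8, 42.9 and 51.1 CPM with young IFE, the groups apart (-0.40, adjusted p = 0.00788 without the library and 0.124 with it). Of 16 clock genes tested with 6 libraries 4 were positive, against 51.9% of all genes, with a median of -0.08. Atf3, a stress-induced transcription factor, had 214, 227 and 206 CPM with old IFE, against 247, 238 and 257 CPM with young IFE (-0.17, adjusted p = 0.0304 without the library). Of 31 ATF4 and integrated stress genes 6 were positive with 6 libraries and 13 without old IFE replicate 3, against 51.9% and 51.3% of all genes. That library was the lowest of the 6 for 23 of the 31, against 19.7% of all genes.

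**Figure D3:**
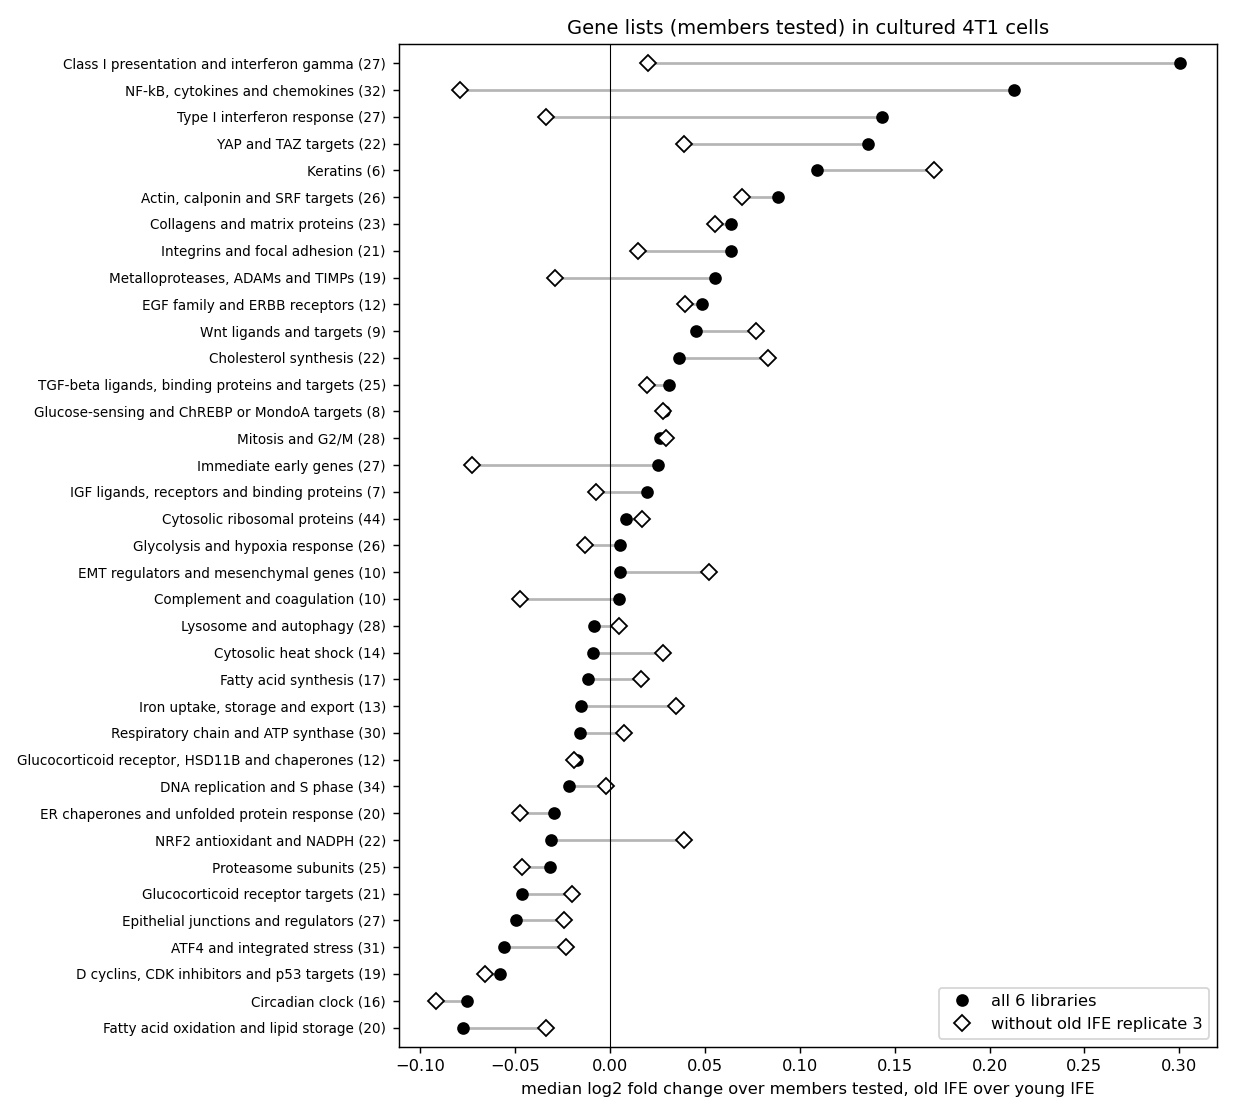
Median log2 fold change of each gene list, old IFE over young IFE, with all 6 libraries (filled circles) and without old IFE replicate 3 (open diamonds). The number of members tested is in brackets. The lists for class I presentation and interferon gamma, for NF-kB and for type I interferon move from 0.30, 0.21 and 0.14 to 0.02, -0.08 and -0.03, and the actin list moves from 0.09 to 0.07.

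Old IFE replicate 3 differed from all other libraries in a group of immune genes. At 10217 genes of 5 CPM or more, it stood above all 5 other libraries by more than 0.3 on the log2 scale for 199 genes and below them for 85. The other libraries did so for 8 to 36 genes above and 15 to 41 below. The widest spaces belonged to guanylate-binding proteins, large GTPases that interferon gamma induces and that attack intracellular pathogens. Gbp3 stood at 76.2 CPM in old IFE replicate 3, at 6.83 and 7.23 CPM in the other old IFE libraries and at 7.83, 7.09 and 8.78 CPM with young IFE. Gbp2 stood at 94.8 CPM there, at 16.4 and 16.8 CPM in the other old IFE libraries and at 20.7, 18.01 and 18.6 CPM with young IFE. The 2 other old IFE libraries were thus within or below the young IFE range. All 7 Gbp genes tested (Gbp2, Gbp2b, Gbp3, Gbp4, Gbp5, Gbp7 and Gbp9, a family named after its values were seen) were highest in old IFE replicate 3. Members of this family are close copies and may share reads, and in bulk RNA more cells with a transcript and more transcript per cell cannot be told apart.

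Promoters of the 3 Gbp genes with most CPM in that library are shown because all held an interferon-stimulated response element (ISRE), searched as GAAA, any 2 bases and GAAA on both strands. RefSeq windows (GRCm38.p6) were at hand for 5 of the 7 Gbp genes, and the ISRE was in the first window of all 5, against 3.44% of 32851 windows. The STAT site TTCNNNGAA was in 2 of the 5, those of Gbp5 and Gbp7, and in 8.3% of all windows. Of the other motifs searched, TEAD and NF-kB were each in 1 of the 5 windows and the CArG box and E-box in 0. In the upstream 250 bases, 5′ to 3′ on the gene's strand, capitals mark the ISRE, read here from its other strand.
Gbp3 (chr3:142559794-142560043, plus strand): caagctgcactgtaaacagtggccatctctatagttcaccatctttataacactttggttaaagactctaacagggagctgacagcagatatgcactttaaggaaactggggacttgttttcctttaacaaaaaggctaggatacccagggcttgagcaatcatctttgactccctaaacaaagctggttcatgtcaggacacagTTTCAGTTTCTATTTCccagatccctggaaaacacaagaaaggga
Gbp2 (chr3:142620413-142620662, plus strand): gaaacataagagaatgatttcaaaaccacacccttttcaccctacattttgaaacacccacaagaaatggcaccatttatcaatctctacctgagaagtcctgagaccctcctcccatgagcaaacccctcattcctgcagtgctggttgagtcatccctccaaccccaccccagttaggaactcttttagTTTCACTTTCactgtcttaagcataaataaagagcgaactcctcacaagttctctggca
Gbp2b (chr3:142594597-142594846, plus strand): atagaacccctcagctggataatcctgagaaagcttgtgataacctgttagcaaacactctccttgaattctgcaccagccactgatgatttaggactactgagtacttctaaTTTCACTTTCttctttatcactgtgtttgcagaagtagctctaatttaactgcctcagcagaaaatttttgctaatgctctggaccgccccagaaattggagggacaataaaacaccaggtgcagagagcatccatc
The run in capitals of Gbp3 is 2 overlapping matches. A match says nothing of which factor, if any, was bound.

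**Figure D4:**
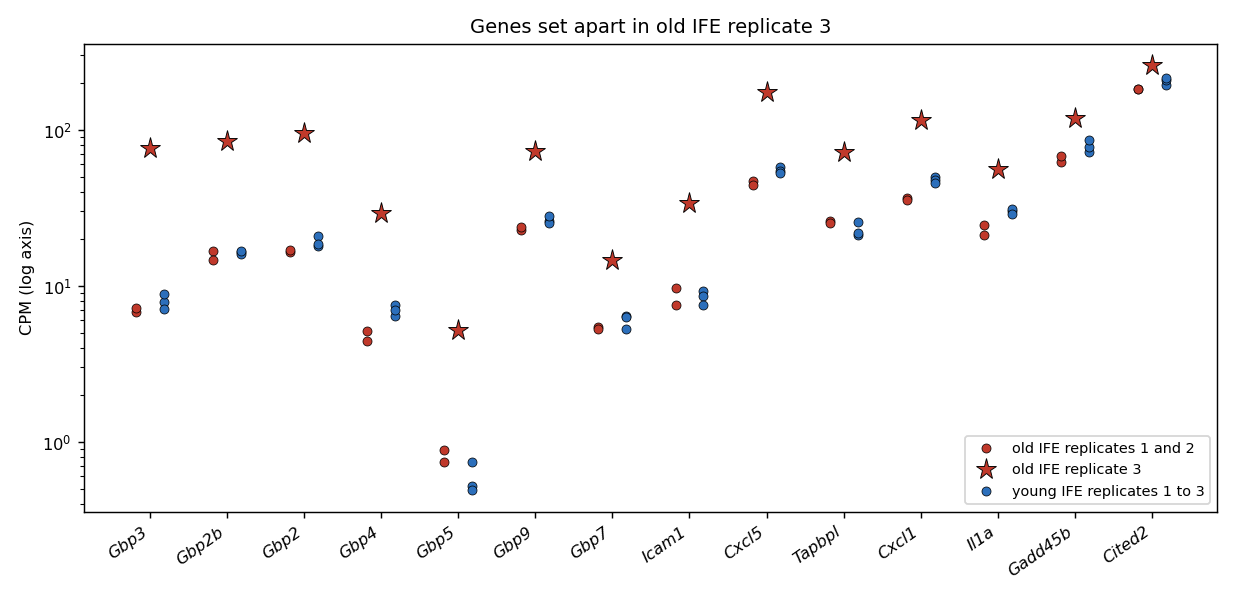
CPM (log axis) of genes set apart in old IFE replicate 3, drawn as a star, beside old IFE replicates 1 and 2 (red) and young IFE replicates 1 to 3 (blue). The star is above the other 5 points for every gene shown, from Gbp3 at 76.2 against 6.83 to 8.78 CPM to Cited2 at 259 against 183 to 213 CPM.

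The class I presentation and interferon gamma list followed the same library. Of its 27 tested members, 25 had a positive log2 fold change with 6 libraries and 16 without old IFE replicate 3, against 51.9% and 51.3% of all genes. That library was the highest for 22 of the 27, against 20.6% of all genes. Tapbpl, a peptide editor for class I molecules, stood at 72.2 CPM there, at 25.8 and 25.3 CPM in the other old IFE libraries and at 25.5, 21.0 and 21.7 CPM with young IFE. With 6 libraries edgeR, DESeq2 and limma-voom each called 0 of the list, and 4 had an unadjusted p under 0.05 (edgeR), against 7.08% of all genes. Without the library edgeR called 0, with 5 at that unadjusted p, against 12.4% of all genes. Of 27 type I interferon genes, 20 were positive with 6 libraries and 11 without old IFE replicate 3, against 51.9% and 51.3% of all genes. That library was the highest for 21 of the 27, against 20.6% of all genes. In either comparison edgeR called 0 of these genes. An unadjusted p under 0.05 was reached by 1 and 3 of them, against 7.08% and 12.4% of all genes. DESeq2 and limma-voom called 0 with 6 libraries.

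The NF-kB, cytokine and chemokine list held genes on which old IFE replicate 3 and its group went opposite ways. Of 32 members tested, 26 were positive with 6 libraries and 8 without that library, against 51.9% and 51.3% of all genes. That library was also the highest for 26 of the 32, against 20.6% of all genes. Without it the median was -0.08 and 4 were called lower, against 0.74% of all genes: Nfkbia, Il1a, Il23a and Cxcl1. Cxcl1, a chemokine for neutrophils, stood at 36.5 and 35.5 CPM in old IFE replicates 1 and 2, at 115 CPM in replicate 3, and at 49.99, 47.4 and 45.2 CPM with young IFE. Its log2 fold change was -0.40 without replicate 3 (adjusted p = 0.00376, edgeR) and 0.39 with it (adjusted p = 0.933). Il1a, an alarmin of the interleukin 1 family, stood at 21.3, 24.6 and 55.9 CPM with old IFE, against 30.2, 31.0 and 29.0 CPM with young IFE. Gadd45b, a growth-arrest gene induced by NF-kB, stood at 62.3, 68.0 and 118 CPM with old IFE, against 71.5, 77.2 and 86.4 CPM with young IFE. Cited2, a transcriptional coregulator, stood at 183.4, 182.8 and 259 CPM with old IFE, against 194, 207 and 213 CPM with young IFE. In these 4 genes, old IFE replicates 1 and 2 were the lowest 2 of the 6 libraries and replicate 3 was the highest. They were the 4 of the 183 genes whose sign turned with replicate 3.

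Nfkbia and Il23a kept their direction in all 3 old IFE libraries. Nfkbia, the inhibitor that NF-kB itself induces, stood at 106, 105 and 111 CPM with old IFE, against 127, 129 and 119 CPM with young IFE (log2 fold change -0.22, adjusted p = 0.189 with 6 libraries, edgeR, and -0.25, adjusted p = 0.00538 without replicate 3). Icam1, an adhesion molecule, and Cxcl5, a chemokine, were high in replicate 3 alone. Icam1 stood at 9.70, 7.53 and 33.9 CPM with old IFE, against 9.27, 8.56 and 7.49 CPM with young IFE. Cxcl5 stood at 47.0, 44.0 and 175 CPM with old IFE, against 58.0, 53.9 and 52.9 CPM with young IFE (adjusted p = 0.0513 without replicate 3).

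Nr3c1, Fkbp5 and Mki67 had groups that overlapped. Nr3c1, the glucocorticoid receptor gene, stood at 191, 184 and 191 CPM with old IFE and 188, 188 and 192 CPM with young IFE. Fkbp5, a chaperone induced by glucocorticoids, stood at 73.3, 66.5 and 68.3 CPM with old IFE, against 67.9, 72.6 and 72.6 CPM with young IFE. Mki67, a marker of cycling cells, stood at 125, 137 and 135 CPM with old IFE, against 126, 138 and 122 CPM with young IFE. Their log2 fold changes were -0.01 ± 0.0431, -0.03 ± 0.0622 and 0.04 ± 0.0558. Of 21 glucocorticoid receptor targets 5 were positive with 6 libraries, against 51.9% of all genes, with a median of -0.05. Without old IFE replicate 3, 8 of 22 were positive, against 51.3% of all genes, with a median of -0.02. With 6 libraries edgeR, DESeq2 and limma-voom called 0 of them, and 3 had an unadjusted p under 0.05 (edgeR), against 7.08% of all genes. Without old IFE replicate 3, edgeR called Nfkbia lower, against 0.74% of all genes. Of 19 D cyclins, CDK inhibitors and p53 targets 6 were positive with 6 libraries, against 51.9% of all genes, with a median of -0.06. Btg1 was the 1 called, lower, against 0.0305% of all genes.

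The same genes were set beside 4T1 cells sorted from lungs of old and young mice, which were injected 4 weeks earlier and share no library with the cultures. In lung cells 19.6% of genes were called higher and 20.4% lower in old mice. Of the 7 genes higher with old IFE, 4 were higher in old lungs, 1 was lower and 2 were not called. Of the 4 genes lower with old IFE, 1 was higher, 1 was lower and 2 were not called. The difference between the settings passed its own test for all 7 of the higher genes and for 3 of the 4 lower ones, against 17.5% of all genes. Nothing is read from that share, since the genes were called on the same culture libraries. Without old IFE replicate 3, 41 of the 84 genes higher with old IFE (48.8%) were higher in old lungs and 20 (23.8%) were lower. Of the 99 genes lower with old IFE, 18 (18.2%) were lower and 30 (30.3%) were higher.

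**Figure D5:**
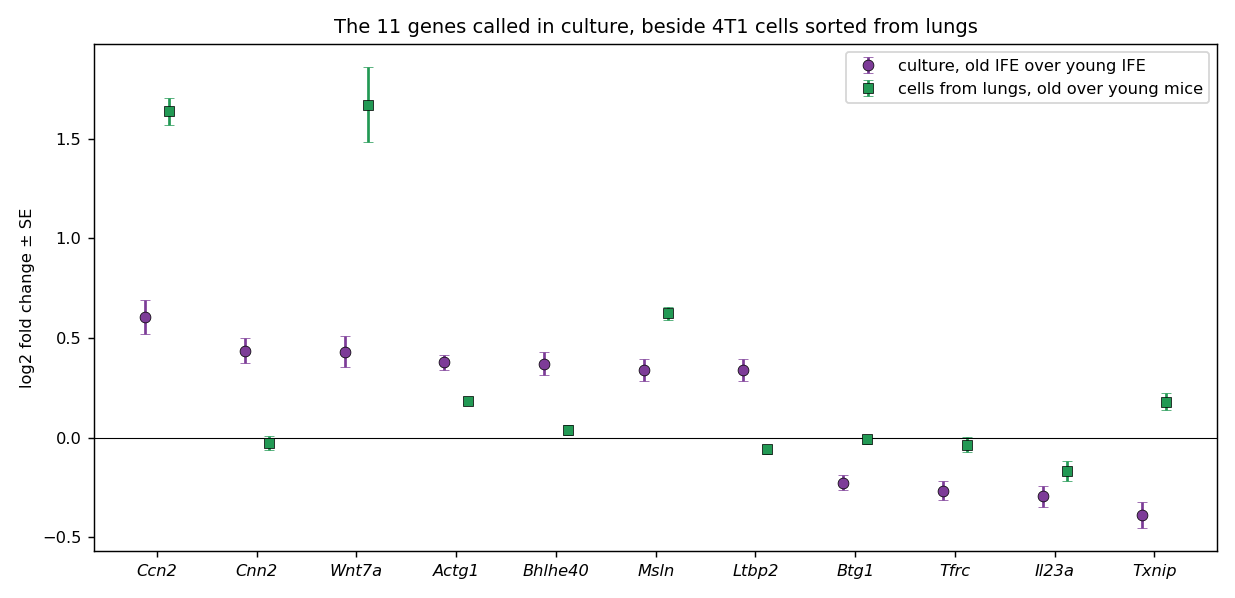
Log2 fold change with SE of the 11 called genes, in culture (old over young IFE, circles) and in 4T1 cells from lungs (old over young mice, squares). Ccn2, Wnt7a and Msln are farther above 0 in lung cells than in culture, Cnn2, Bhlhe40 and Btg1 are near 0 in lung cells, and Txnip is on opposite sides.

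Ccn2, Wnt7a and Msln rose in both settings and rose more in lung cells. Ccn2 averaged 80.6 ± 7.4 CPM in old lungs and 26.0 ± 1.31 CPM in young lungs (SD, n = 3 each), a log2 fold change of 1.64 against 0.60 in culture. Wnt7a averaged 10.0 ± 2.1 CPM in old lungs and 3.13 ± 0.632 CPM in young lungs, and Msln 264 ± 4.59 CPM in old lungs and 171 ± 2.09 CPM in young lungs. Actg1 rose in both and rose less in lung cells, by 0.19 on the log2 scale. Cnn2 averaged 167 ± 4.76 CPM in old lungs and 170 ± 0.682 CPM in young lungs and Bhlhe40 averaged 502 ± 8.62 CPM in old lungs and 489 ± 8.38 CPM in young lungs, neither called there. Ltbp2 was lower in old lungs, by a small step (log2 fold change -0.06, adjusted p = 0.0338, edgeR). Txnip averaged 120 ± 5.27 CPM in old lungs and 106 ± 0.579 CPM in young lungs, higher where it was lower in culture. Il23a fell in both, to 76.7 ± 1.72 CPM in old lungs, against 86.2 ± 0.854 CPM in young lungs. The Gbp genes that marked old IFE replicate 3 were lower in old lungs, with Gbp3 at 66.9 ± 2.63 CPM in old lungs and 135 ± 2.6 CPM in young lungs.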

How the data were processed

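Poly-A RNA of 4T1 cells was sequenced in 6 culture libraries, and 6 libraries of cells sorted from lungs served as a side comparison. The authors deposited raw counts per gene, size-factor-normalized counts (signal) and FPKM, per the file headers. Tools listed without roles, per the submitters' processing notes, are featureCounts 1.5.0-p3, HISAT2 2.0.5 and DESeq2. The build listed there is GRCh38 although the rows are mouse Ensembl genes, so the build of the deposited coordinates is not settled here. Per the labels' protocols libraries may be stranded or unstranded, so overlapping and antisense genes are uncertain.

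Deposited counts were fitted with edgeR 4.0.16 (TMM, filterByExpr, robust quasi-likelihood F-test, Benjamini-Hochberg adjustment over all genes tested, called under 0.05) in R 4.3.3. CPM use the TMM-scaled library size. For 1 lung library, young replicate 3, no count column was used; its counts were reconstructed from the deposited normalized signal, in which 100% of values were whole reads within 0.001. Lung and culture were compared by an interaction contrast over all 12 libraries. Genes to name were all called genes and the 12 of lowest p in each direction without old IFE replicate 3. To these were added up to 3 of lowest p per list and a set fixed whatever its values. The 10 widest gaps of old IFE replicate 3 on each side came last. All genes called with 6 libraries are described. Of the other sets only a part is described, picked with the values known, and none of the 10 gaps below the other libraries. A pseudocount of 0.5 CPM was added before log2 for gaps. Members, lists and alternatives were chosen with earlier results of these data known. Alternatives used DESeq2 1.42.0, limma 3.58.1, other scalings and filters, FPKM with pseudocounts of 0.1 and 1, and each library left out.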

Additional observations from a re-analysis of the deposited data

Results flagged for a closer look

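Between culture and lung, the old against young change differed by the interaction test (edgeR, adjusted over 14318 genes) for 29 of 63 genes named above and tested (46.0%). The share over all genes was 17.5%, and nothing is read from the difference, since the genes were named with their values known. Values are the log2 fold change in culture minus that in lung cells. Among the 11 called genes, the difference was positive for Actg1 (0.2), Cnn2 (0.47), Bhlhe40 (0.34) and Ltbp2 (0.4). It was negative for Ccn2 (-1.03), Wnt7a (-1.24) and Msln (-0.28), which rose in both settings and more in lung cells. It was negative too for Txnip (-0.57), which was lower with old IFE and higher in old lungs, and for Btg1 (-0.21) and Tfrc (-0.23), which were lower with old IFE and not called in lung cells. Il23a, the remaining called gene, had a difference of -0.12 that did not pass (adjusted p = 0.255).

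Among the genes called only without old IFE replicate 3, the difference with all 12 libraries passed and was positive for Thbs1 (0.55) and Itga3 (0.12). It passed and was negative for Mmp9 (-0.61), Krt7 (-0.61), Ltbp4 (-0.29), Mex3c (-0.33), Nr1d1 (-0.39), Nfkbia (-0.3), Atf3 (-0.15), Fbln2 (-0.53), Bmp1 (-0.35) and Pmepa1 (-0.21). Among genes called in neither culture comparison, it passed for Myh9 (0.19), Flna (-0.22), Epcam (-0.78) and Cdh1 (-0.26). It passed too for Krt18 (-0.5) and Itgb1 (-0.25), which are not counted among the 63 genes. Fkbp5, not called in culture and higher in old lungs, had a difference of -0.34. Gbp7 (1.67) and Gbp5 (3.26) also passed, and in culture both were high in old IFE replicate 3 alone. The cell source, the medium and the time between the settings differ as well, and their part in these differences was not tested.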

How the results depend on the processing

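The count of 11 called genes depended on the tool and on single libraries. It was 26 with the DESeq2 Wald test, 1 with limma-voom, 1 with dispersions estimated without robust weights, 1 with limma on log2(FPKM + 0.1), 1 on log2(FPKM + 1), 70 with no filter on low counts and 0 against a fold of 1.2 (116 genes had an unadjusted p under 0.05 there). The 1 gene called with limma-voom and the 1 called without robust weights were among the 11. The 1 gene called on each FPKM scale was lower with old IFE and not among the 11. With 1 library left out the count ran between 1 and 183. Among old IFE libraries, omitting replicates 1, 2 and 3 in turn gave 8, 1 and 183 genes, and omitting young IFE replicates 1, 2 and 3 gave 1, 2 and 1. DESeq2 size factors, upper-quartile scaling, a 2 CPM filter and voom sample weights gave 11, 10, 11 and 16 genes. Of the 11 genes, Actg1 passed in 15 of 18 alternatives and each of the other 10 in 7 to 10 of 18, and no log2 fold change of the 11 turned sign in these.

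The count of 183 was 96 without robust weights, and with 1 further library left out it ran from 44 (old IFE replicate 2) to 178 (young IFE replicate 1), and was 75, 113 and 63 when old IFE replicate 1 or young IFE replicate 2 or 3 was omitted. These alternatives for the 5 libraries were added after seeing the data. The labels do not say what a shared replicate number means, and deviations of same-numbered libraries correlated at 0.0202, -0.0274 and 0.0308. With the replicate block, 7 genes passed with 6 libraries and 48 without old IFE replicate 3. The count of 2501 genes whose change differed between culture and lung ran from 2090 to 2985 with 1 library left out and was 2358 with DESeq2.

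Signs that turned belonged to values not called with 6 libraries. With 1 library left out, the log2 fold change was lowest without old IFE replicate 3 for these genes: Gbp3 -0.18 to 2.40, Gbp2b -0.054 to 1.62, Gbp2 -0.20 to 1.55, Gbp4 -0.53 to 1.29, Gbp9 -0.19 to 0.88, Gbp7 -0.16 to 0.74, Cxcl5 -0.27 to 1.00, Cxcl1 -0.40 to 0.67, Il1a -0.40 to 0.43, Gadd45b -0.27 to 0.25 and Cited2 -0.16 to 0.11. With voom sample weights it was -0.16 for Gbp4, -0.16 for Cxcl1, -0.22 for Il1a, -0.15 for Gadd45b and -0.091 for Cited2. Near 0, S100a10 ran from -0.19 to 0.037, Nr3c1 from -0.019 to 0.011, Inhba from -0.22 to 0.055 and Epcam from -0.043 to 0.051, with Epcam at 0.025 with voom sample weights. The causes were not tested.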

Other observations

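The 7 genes that changed by 1.5-fold or more without old IFE replicate 3 are named here after their values were seen. Cd40, a receptor of the tumour necrosis factor family on antigen-presenting and epithelial cells, stood at 5.84, 5.53 and 6.41 CPM with old IFE, against 1.89, 3.50 and 3.19 CPM with young IFE. Its log2 fold change was 1.00 without old IFE replicate 3 (adjusted p = 0.0305, edgeR) and 1.06 with it, the groups apart in both. Dynlt1a, a dynein light chain with near-identical copies, stood at 3.31, 2.14 and 3.08 CPM with old IFE, against 1.31, 0.815 and 0.737 CPM with young IFE. Bend5 and Pkn3 were higher, with log2 fold changes of 0.70 and 0.69 without that library.

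Srp54b, a signal recognition particle gene with near-identical copies, stood at 0.606, 2.14 and 9.87 CPM with old IFE, against 15.3, 9.37 and 13.9 CPM with young IFE, with replicate 3 of old IFE inside the young range. The pseudogenes Gm6565 and Gm8325 were lower, by -0.70 and -0.94 on the log2 scale without old IFE replicate 3. Reads of such copies can be split between loci by the counting, so these values are uncertain.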
